A study of Mus musculus with 8 samples.

Results

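Myc and 39 genes that build ribosomes were followed over the 8 arrays of the series. The 40 genes were given as a named list, and the probe sets were those that the platform annotation assigned to exactly 1 of them. This gave 81 probe sets for 39 of the 40 genes, out of 18193 genes in the whole table with a probe set of their own. Mrto4, a placeholder protein of the forming large subunit, shared its probe set with another gene and was not analysed here. Each gene is represented by its brightest probe set on average over the arrays. All 39 genes lay above a detection floor of 64.1 on at least 2 arrays and entered the test, as did 14027 genes in all; 12 of the 39 had only 1 probe set. The study measured RNA from the gut of C57BL/6 mice aged 110 days. In colon and in small intestine alike, 4 groups were profiled. WT mice (wild type) and mice lacking the chemokine-scavenging receptor ACKR2, also called D6 (ACKR2-/-, here ACKR2KO), gave tissue without tumours. ApcMin/+ mice (ApcMin), in which 1 allele of the tumour suppressor gene Apc is mutated and the gut forms tumours, and mice with both changes (ACKR2-/-ApcMin/+, here ACKR2KO_ApcMin) gave tumours. The tumours of the small intestine are labelled as ileum. RNA was pooled within each genotype and tissue, so every group was 1 array of 1 pool from an unstated number of animals. The tumour arrays have no adjacent tissue of the same mice to stand against, and the control tissue came from mice without the Apc mutation.

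Myc is a transcription factor that pairs with Max and binds E-box sequences near gene starts. Genes for ribosome production are among its best known targets, from RNA polymerase I, which transcribes the ribosomal RNA precursor, to the small nucleolar ribonucleoproteins (snoRNPs) that modify it and the factors that cut and fold it into the small and large subunits. In intestinal epithelium, Myc itself is a target of Wnt signalling, the pathway that Apc restrains.

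The E-box letters were searched in the promoters of the list because Myc with Max binds them. RefSeq's promoter table (GRCm38.p6, 250 bases before to 50 after each gene start) matched 35 of the 40 genes; Myc, Fbl, Rrp12, Rrs1 and Bop1 were not matched. CACGTG, which reads the same on both strands, was found in the promoters of 9 of the 35 genes (25.7%). It was found for 8.09% of 27025 genes in the table and for 11.2% of the 11242 matched genes that were tested on the arrays. The 9 windows are given here in lower case, 5′ to 3′ on the gene's strand, with the E-box in capitals; they were picked by the motif and not by a rule on expression. Counted from the gene start, the first base of the E-box lay at -121 in Imp4, -60 in Nop2 and -20 in Utp18, and after the start in the other 6 genes.
Imp4 (chr1:34439696-34439725, plus strand): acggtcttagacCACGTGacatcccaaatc
Ltv1 (chr10:13193092-13193121, minus strand): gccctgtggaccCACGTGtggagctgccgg
Mybbp1a (chr11:72441355-72441376, plus strand): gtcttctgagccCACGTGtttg
Nop2 (chr6:125131811-125131840, plus strand): gtgtccctggatCACGTGtgttccggtgcc
Pes1 (chr11:3963965-3963994, plus strand): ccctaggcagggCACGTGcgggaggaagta
Tsr1 (chr11:74898092-74898121, plus strand): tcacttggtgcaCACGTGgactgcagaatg
Utp18 (chr11:93885769-93885798, minus strand): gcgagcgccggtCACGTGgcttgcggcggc
Utp20 (chr10:88826765-88826789, minus strand): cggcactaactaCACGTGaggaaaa
Wdr43 (chr17:71616220-71616249, plus strand): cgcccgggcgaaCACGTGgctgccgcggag
A match describes letters in a window and not a bound site. Of these 9 genes, 3 rose in colon tumours at an adjusted p under 0.05 by limma (Mybbp1a, Nop2 and Ltv1). Of all genes tested 11.1% rose there. The median log2 difference of the 9 was 0.81. Of the 25 measured genes without the letters in the window, 10 rose, with a median of 0.80. In small-intestinal tumours the medians were 0.63 with the letters and 0.44 without; neither gap was tested. In colon 2 genes with it, Tsr1 and Utp20, were the only genes of the list below 0 there.

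The upstream 250 bases of 5 promoters show the base composition of the list, with 1 gene for each of 5 roles and every CG dinucleotide in capitals. They are the promoters of Polr1b (RNA polymerase I), Nop56 (box C/D snoRNPs), Dkc1 (box H/ACA snoRNPs), Ncl (nucleolar scaffold) and Heatr1 (small subunit), and none of them held CACGTG.
Polr1b (chr2:129100746-129100995, plus strand): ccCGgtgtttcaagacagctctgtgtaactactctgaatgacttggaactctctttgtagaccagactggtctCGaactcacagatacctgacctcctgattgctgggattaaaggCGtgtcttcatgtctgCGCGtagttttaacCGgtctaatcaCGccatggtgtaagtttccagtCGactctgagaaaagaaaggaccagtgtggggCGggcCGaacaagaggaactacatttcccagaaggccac
Nop56 (chr2:130274162-130274411, plus strand): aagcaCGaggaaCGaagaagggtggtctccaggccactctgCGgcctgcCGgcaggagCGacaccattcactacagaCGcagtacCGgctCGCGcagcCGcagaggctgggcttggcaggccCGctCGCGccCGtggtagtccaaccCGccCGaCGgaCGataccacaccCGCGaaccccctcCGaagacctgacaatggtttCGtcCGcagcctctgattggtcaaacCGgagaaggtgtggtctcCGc
Dkc1 (chrX:75095604-75095853, plus strand): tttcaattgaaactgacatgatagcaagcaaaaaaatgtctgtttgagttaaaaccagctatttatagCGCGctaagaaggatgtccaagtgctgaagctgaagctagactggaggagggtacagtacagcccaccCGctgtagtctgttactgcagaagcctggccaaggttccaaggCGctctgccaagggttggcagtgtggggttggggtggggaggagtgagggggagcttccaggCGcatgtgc
Ncl (chr1:86359456-86359705, minus strand): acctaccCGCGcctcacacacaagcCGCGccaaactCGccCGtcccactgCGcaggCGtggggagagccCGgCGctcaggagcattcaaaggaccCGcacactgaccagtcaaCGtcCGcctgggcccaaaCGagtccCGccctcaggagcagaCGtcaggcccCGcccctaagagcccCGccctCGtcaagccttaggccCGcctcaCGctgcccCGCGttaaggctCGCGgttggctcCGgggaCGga
Heatr1 (chr13:12395125-12395374, plus strand): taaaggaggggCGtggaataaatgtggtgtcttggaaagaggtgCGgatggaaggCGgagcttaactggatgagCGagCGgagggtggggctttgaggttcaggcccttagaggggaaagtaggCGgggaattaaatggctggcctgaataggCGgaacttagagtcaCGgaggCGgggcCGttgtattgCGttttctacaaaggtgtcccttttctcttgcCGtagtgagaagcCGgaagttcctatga
The CG count ran from 5 in Dkc1 to 27 in Ncl. Over the full 300 bases the promoters of the list had a median GC content of 58.0% and a median of 20 CG dinucleotides. The median was 7 over all promoters of the table and 19 over genes tested on the arrays, so the list resembled other expressed genes in this respect.

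Measures of the arrays moved with the groups. Median signal ran from 85.5 to 133.1, and the 4 arrays with ACKR2 loss had the 4 values from 85.5 to 103. The ratio of 3' to 5' signal of Actb, a measure of RNA integrity, was 1.13 to 1.17 with ACKR2 intact and 1.28 to 1.39 without it. The same ratio of Gapdh overlapped between the genotypes, at 0.77 to 0.95 with it and 0.74 to 0.87 without. The Y-linked Eif2s3y was at 2.92 and 2.66 in WT colon and small intestine and at 888 to 1501 on the other 6 arrays. Summed over 10 smooth muscle genes, signal was 137523 and 116329 in non-tumour colon against 36200 and 9834 in colon tumours, and 65271 and 69977 in non-tumour small intestine against 27172 and 12570 in its tumours. Summed over 12 epithelial genes it stayed between 157625 and 227138 on all arrays. Because whole tissue was profiled, fewer cells of a type and less RNA per cell cannot be told apart. The part of muscle content, sex and RNA integrity in the results was not tested.

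The list had a median above that of all genes in tumours of both tissues. Its effects in colon and small intestine were not shown to differ: 0 of 39 genes passed the test of that difference (limma, 6 or 15.4% at an unadjusted p under 0.05, against 19% of all genes). In colon tumours 16 of the 39 genes rose and 0 fell, at an adjusted p under 0.05 (limma, Benjamini-Hochberg over all genes), where 11.1% of all genes tested rose and 12.6% fell. The median log2 difference of the 39 genes was 0.80 against 0.00 over all genes. Of the 39, 37 lay above 0, as did 7164 of all 14027 genes. In small-intestinal tumours 1 of 39 rose (Rrs1) and 0 fell, where 2.72% of all genes rose and 1.18% fell. The median there was 0.44 against 0.04, and 38 of 39 lay above 0, as did 7735 of all 14027 genes. At an unadjusted p under 0.05, 27 genes passed in colon (69.2%, against 37.4% of all genes) and 14 in small intestine (35.9%, against 20.1%). Standard errors and p-values rest on the gap between the ACKR2 effects of colon and small intestine (2 residual degrees of freedom, widened by 4.12 prior ones), not on animals. With any single array left out, or with no filter on dim genes, 0 of the 39 genes passed in either tissue; without any 1 array, 0 of all genes passed in colon. Leaving out an array leaves 1 residual degree of freedom, so that loss says nothing about the array. The median in colon lay between 0.69 and 0.82 under 9 other settings.

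**Figure D1:**
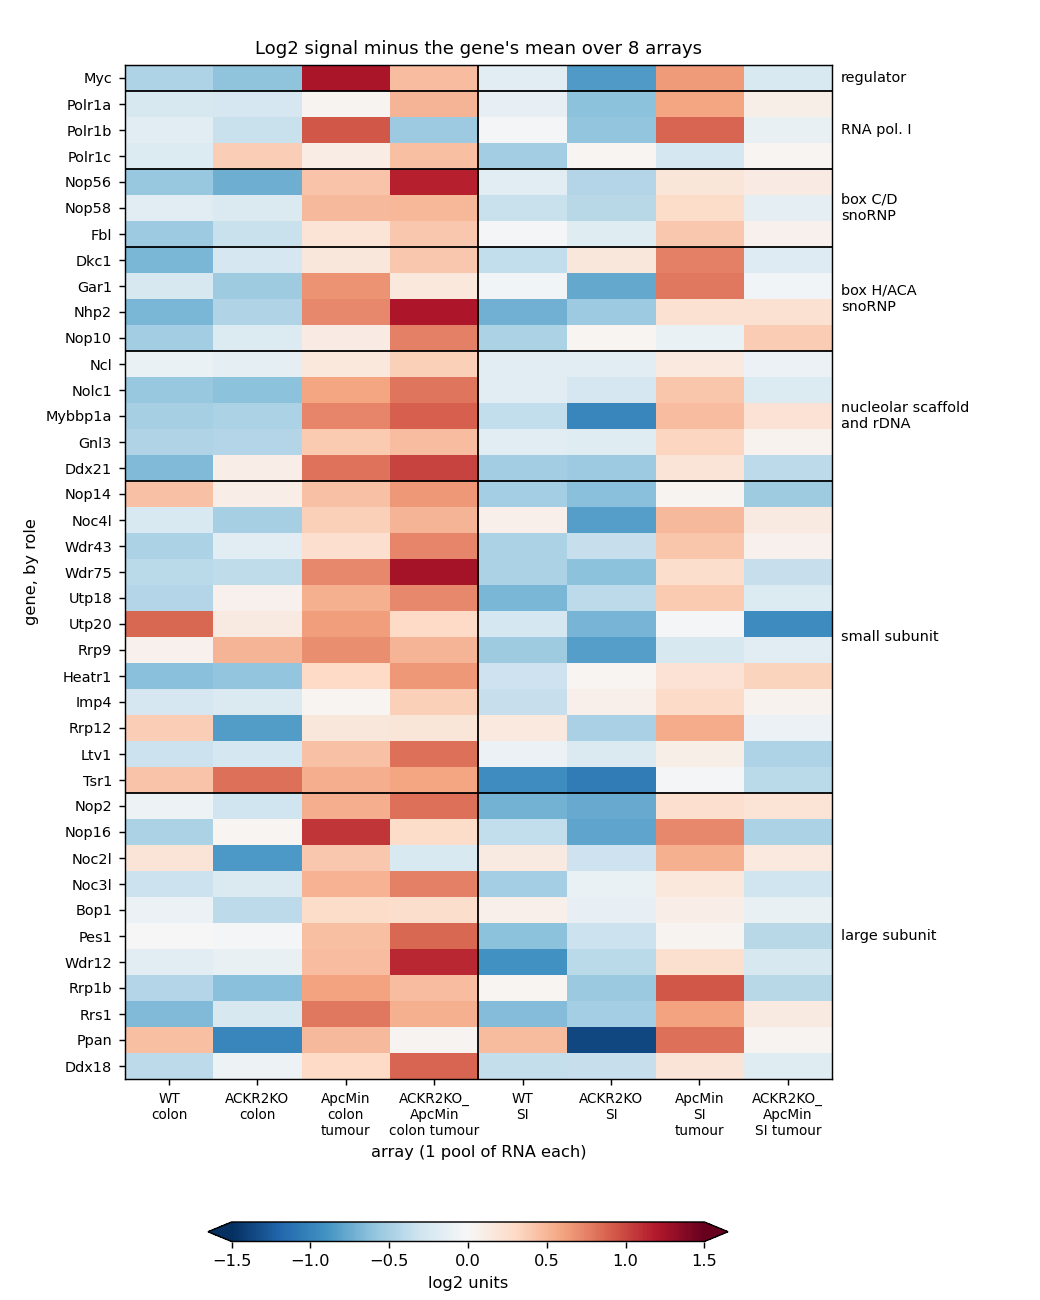
Each row is 1 of the 39 genes, grouped by role, and each column 1 array; colour gives the log2 signal minus the gene's mean over the 8 arrays. The ApcMin and ACKR2KO_ApcMin colon tumour columns are mostly red (medians 0.46 and 0.51), the ApcMin small-intestinal tumour column is red (0.28), the ACKR2KO_ApcMin small-intestinal tumour column is mixed (-0.11), and the 4 non-tumour columns are mostly blue (-0.25 to -0.44).

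By role, the snoRNP and nucleolar genes held most of the calls in colon. All 3 box C/D genes, 3 of 4 box H/ACA genes and 4 of 5 nucleolar genes rose there. Of the small-subunit factors 3 of 12 rose, of the large-subunit factors 2 of 11, and of the RNA polymerase I subunits 0 of 3. Of all genes 11.1% rose. The counts did not follow the medians. The median colon difference was 0.74 for box C/D, 0.80 for box H/ACA and 1.20 for nucleolar genes. It was 0.61 for small-subunit factors, 0.88 for large-subunit factors and 0.44 for RNA polymerase I. At an unadjusted p under 0.05 (limma), 6 of 12, 9 of 11 and 0 of 3 of these last groups passed. Differences between roles were not tested. In all 4 pairs of tumour against non-tumour tissue of the same ACKR2 genotype, 28 of the 39 genes were higher (71.8%), where 19.2% of all genes were. Within colon, both tumour arrays lay above both non-tumour arrays for 31 of the 39 genes (26.4% of all genes), and within small intestine for 21 (23.3%). The highest of the 8 arrays was ACKR2KO_ApcMin colon tumours for 24 genes (21.4% of all genes). For 14 genes (35.9%, against 6.8% of all genes) even the lowest of the 4 tumour arrays lay above the highest of the 4 non-tumour arrays. These were Polr1a, Nop56, Nop58, Fbl, Nhp2, Ncl, Mybbp1a, Gnl3, Noc4l, Wdr43, Wdr75, Heatr1, Nop2 and Rrs1. In the following, 4 signals of a tissue stand in the order WT, ACKR2KO, ApcMin tumour, ACKR2KO_ApcMin tumour. They are linear intensities, and log2 differences between tumour and non-tumour tissue carry their standard error.

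Myc, the regulator, had signals of 469.5, 425, 1512 and 889 in colon and 574, 359.6, 1008 and 555 in small intestine. Both colon tumour arrays lay above both non-tumour colon arrays, while in small intestine the ACKR2KO_ApcMin tumours lay below WT tissue. Myc rose in colon tumours by 1.38 ± 0.21 (adjusted p = 0.00901, limma), a fold of 2.6. In small-intestinal tumours the difference was 0.72 ± 0.21 (adjusted p = 0.135, limma). ACKR2KO_ApcMin tumours had less Myc signal than ApcMin tumours in both tissues, and ACKR2KO tissue less than WT tissue in both.

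**Figure D2:**
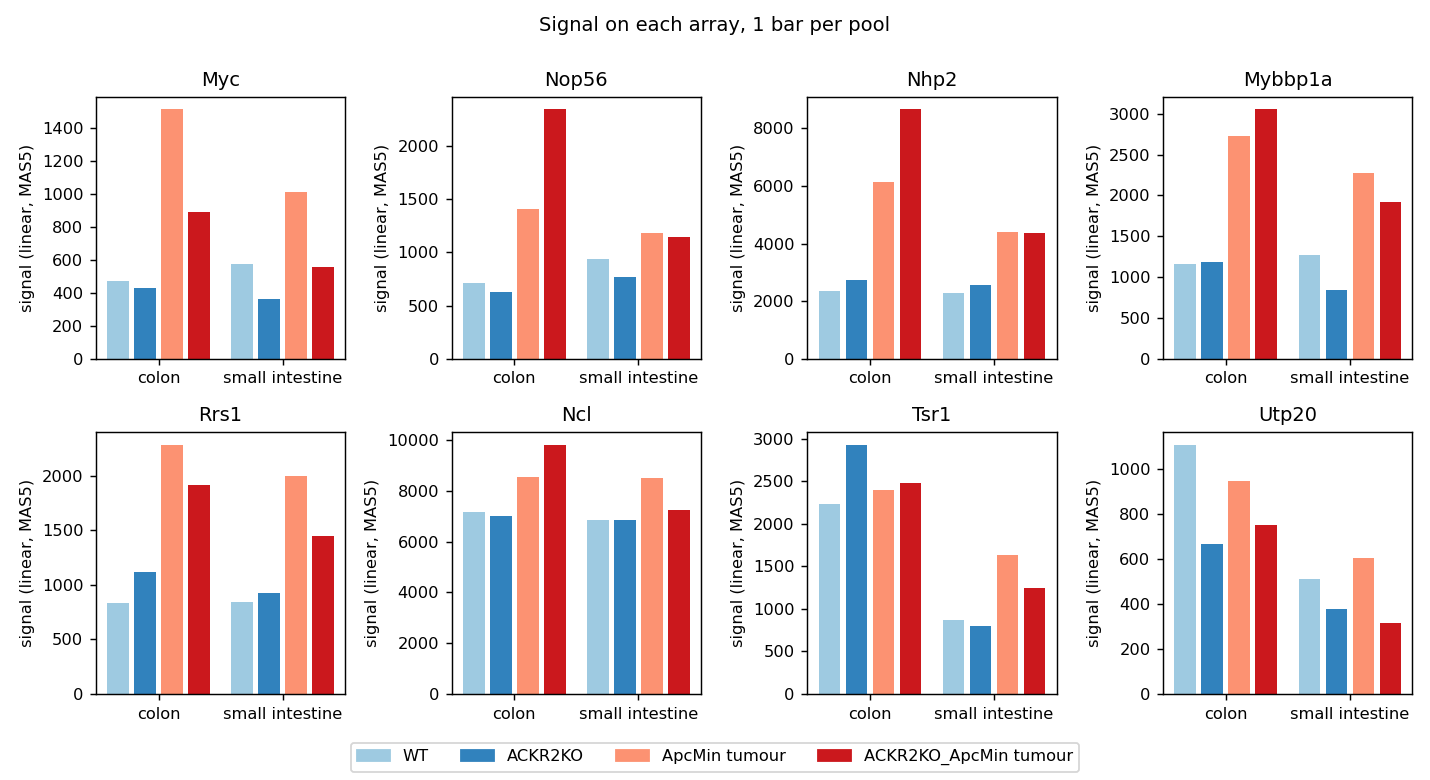
Bars give the linear signal of 8 genes on each of the 8 arrays, with 1 bar per pool and colours for the 4 groups. Nhp2 and Mybbp1a have all 4 tumour bars above all 4 non-tumour bars, Myc is highest in ApcMin colon tumours at 1512, and Tsr1 and Utp20 are highest in non-tumour colon.

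None of the 3 subunits of RNA polymerase I passed in either tissue. Polr1b, a catalytic core subunit, had 181, 162, 388 and 139 in colon and 199, 136, 373 and 189 in small intestine. Only the ApcMin tumour arrays were high, and ACKR2KO_ApcMin tumours lay below both non-tumour arrays in colon and between them in small intestine. The tumour differences were 0.44 ± 0.27 in colon and 0.69 ± 0.27 in small intestine, and neither passed (adjusted p = 0.29 and 0.232, limma). Polr1c, which RNA polymerase I shares with RNA polymerase III, had 1122, 1674, 1395 and 1771 in colon and 898, 1324, 1079.7 and 1319 in small intestine. Here the ACKR2-deficient array was the higher of every pair, and tumour and non-tumour arrays overlapped in both tissues. Polr1a, the largest subunit, ranged from 225 to 518, with its highest signal in ApcMin small-intestinal tumours. Its differences of 0.52 ± 0.31 in colon and 0.71 ± 0.31 in small intestine did not pass.

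Box C/D snoRNPs carry the 2′-O-methylation of ribosomal RNA. Nop56, a core protein of these particles, had 709.8, 631, 1412 and 2352 in colon and 941, 773, 1185 and 1142 in small intestine. Tumour arrays lay above non-tumour arrays in both tissues, with the highest signal in ACKR2KO_ApcMin colon tumours. Nop56 rose by 1.45 ± 0.22 in colon tumours (adjusted p = 0.009, limma), against a difference of 0.45 ± 0.22 in small intestine. Fbl, the methyltransferase fibrillarin, had 2036, 2354, 3419.8 and 3935 in colon and 2904, 2609, 3935 and 3109 in small intestine. The tumour arrays of each tissue again lay above its non-tumour arrays, although the small-intestinal gap was narrow. Fbl rose by 0.74 ± 0.19 in colon tumours (adjusted p = 0.0355, limma). Nop58, the partner of Nop56, ranged from 772 to 1455 and rose in colon tumours by 0.69 ± 0.18.

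Box H/ACA snoRNPs convert uridine to pseudouridine. Nhp2, a core protein, had the largest colon difference of the list, with 2334, 2744, 6149.9 and 8675 in colon and 2271, 2573, 4386 and 4374 in small intestine. All 4 tumour arrays lay well above all 4 non-tumour arrays. The rise in colon was 1.53 ± 0.17 (adjusted p = 0.00406, limma), a fold of 2.89, and the small-intestinal difference of 0.86 ± 0.17 just missed the threshold (adjusted p = 0.0505, limma). Dkc1, the pseudouridine synthase dyskerin, had 724, 981, 1311 and 1540.3 in colon and 903, 1306, 1971 and 1016 in small intestine. Its highest array was the ApcMin small-intestinal tumours, and the ACKR2KO_ApcMin tumours of that tissue lay below ACKR2KO tissue. The differences of 0.75 ± 0.28 in colon and 0.38 ± 0.28 in small intestine did not pass. Nop10, a small core protein, had 4010.1, 5029.9, 6276 and 9765 in colon and 4165, 5902, 5412 and 7543 in small intestine. The ACKR2-deficient array was higher in every pair, and Nop10 rose in colon tumours by 0.80 ± 0.15. Gar1, the remaining core protein, ranged from 788 to 2328 and rose in colon tumours by 0.80 ± 0.18.

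Among the nucleolar scaffold and ribosomal DNA factors, Mybbp1a, a nucleolar Myb-binding protein, had 1161, 1185, 2735 and 3059 in colon and 1271, 836, 2270.0 and 1917 in small intestine. The groups did not overlap in either tissue. Mybbp1a rose by 1.30 ± 0.21 in colon (adjusted p = 0.00972, limma), and its difference of 1.02 ± 0.21 in small intestine was the highest of the list there without passing (adjusted p = 0.055, limma). Nolc1, a chaperone of snoRNPs, had 427, 412, 950.1 and 1100.0 in colon and 561, 529, 843 and 549 in small intestine. In colon the tumour arrays were clearly higher, while ACKR2KO_ApcMin small-intestinal tumours lay between the non-tumour arrays of that tissue. Nolc1 rose in colon by 1.29 ± 0.25, against 0.32 ± 0.25 in small intestine. Its other probe sets had smaller differences, 0.33 and 0.87 in colon and 0.15 and 0.07 in small intestine. Gnl3, the nucleolar GTPase nucleostemin, had 1156, 1166, 2072 and 2183 in colon and 1418, 1397, 1981 and 1634 in small intestine. All 4 tumour arrays were above the non-tumour arrays, and the rise in colon was 0.87 ± 0.16. Ddx21, an RNA helicase, had 426, 719.6, 1186 and 1355 in colon and 467, 462, 768 and 512 in small intestine. Its colon tumour arrays were the highest, and it rose there by 1.20 ± 0.28. Ncl, the abundant nucleolar protein nucleolin, had 7159, 7014, 8557 and 9829 in colon and 6872, 6853, 8501 and 7252 in small intestine. Tumour arrays were higher throughout, but by little, and the differences of 0.37 ± 0.17 in colon and 0.19 ± 0.17 in small intestine did not pass.

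Small-subunit factors varied among themselves. Wdr75, part of the complex that first meets the ribosomal RNA precursor, had 719, 730.3, 1576 and 2267 in colon and 687, 621, 1146 and 752 in small intestine. Its tumour arrays were higher in both tissues, by far the most in ACKR2KO_ApcMin colon tumours, and it rose in colon by 1.38 ± 0.28 (adjusted p = 0.02, limma). Heatr1, of the same complex, had 633, 653, 1209 and 1536 in colon and 791, 1001, 1134 and 1233 in small intestine. No tumour array overlapped a non-tumour array, and the rise in colon was 1.08 ± 0.17. Ltv1, a late assembly factor, had 1011, 1052, 1718 and 2242 in colon and 1192, 1090.4, 1352 and 922 in small intestine. It rose in colon tumours by 0.93 ± 0.24, while its small-intestinal tumours held both the highest and the lowest signal of that tissue (difference -0.03 ± 0.24).

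In colon, tumour and non-tumour arrays overlapped for Tsr1, Utp20, Nop14 and Rrp12. Tsr1, a late factor related to GTPases, had 2227, 2931, 2403 and 2478 in colon and 866, 799.8, 1635 and 1245 in small intestine. It was high on all 4 colon arrays whether tumour or not, and in small intestine both tumour arrays lay above both non-tumour arrays. The differences were -0.07 ± 0.19 in colon and 0.78 ± 0.19 in small intestine, and neither passed. Utp20, a component of the processome, had 1109, 668, 946 and 751 in colon and 509, 376, 603 and 317 in small intestine. WT colon was its highest array, and tumour and non-tumour arrays overlapped in both tissues, with differences of -0.03 ± 0.23 and 0.00 ± 0.23. Nop14, another processome component, had 308, 243, 307 and 357 in colon and 159.98, 147, 234 and 157 in small intestine. Its groups overlapped in both tissues. Rrp12, an export factor, had 195, 84.2, 170.2 and 171 in colon and 167, 108, 221 and 142 in small intestine, again with overlap in both. Rrp9, a U3 snoRNP protein, was the dimmest of the list, with 119, 161, 184 and 162 in colon and 78.6, 30.3, 96.1 and 101 in small intestine. The ACKR2KO small-intestinal value lay under the floor of 64.1 and was set to it, so differences from it are lower limits; the other 38 genes were above the floor on all 8 arrays. Noc4l, Wdr43, Utp18 and Imp4, all factors of early small-subunit assembly, had both colon tumour arrays above both non-tumour colon arrays, as did Rrp9. The colon differences of these 4 ran from 0.43 (Imp4) to 0.82 (Wdr43) and did not pass.

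Among large-subunit factors, Rrs1, which helps to bring in the 5S particle, had 835, 1119, 2288 and 1915 in colon and 840.5, 925, 2000.0 and 1445 in small intestine. All tumour arrays were above all non-tumour arrays. Rrs1 was the only gene of the list that rose in both tissues, by 1.11 ± 0.16 in colon (adjusted p = 0.00768, limma) and 0.95 ± 0.16 in small intestine (adjusted p = 0.0342, limma). Nop2, a methyltransferase of ribosomal RNA, had 485, 417, 748 and 909.8 in colon and 312, 304, 609 and 588 in small intestine. It showed the same separation of tumour arrays, rose in colon by 0.88 ± 0.21 and had a difference of 0.96 ± 0.21 in small intestine (adjusted p = 0.0713, limma). Pes1 and Bop1 act together with Wdr12 in the PeBoW complex. Pes1 had 732, 717, 996 and 1322 in colon and 477, 585, 750.1 and 546 in small intestine, and Bop1 had 775, 628, 994 and 988 in colon and 866, 755, 885 and 760.4 in small intestine. For both, tumour arrays were higher in colon without overlap and overlapped in small intestine; the colon differences of 0.66 ± 0.25 and 0.51 ± 0.17 did not pass (adjusted p = 0.114 and 0.0825, limma). Wdr12 ranged from 234 to 960, with a colon difference of 0.93 ± 0.33 that did not pass either.

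Ppan, a pre-60S factor, had 335, 124, 344 and 252 in colon and 339.7, 95.2, 435 and 253 in small intestine. The ACKR2-deficient array was the lower of every pair. Its log2 differences were -1.43 and -1.83 in non-tumour colon and small intestine, and -0.45 and -0.78 in their tumours. Tumour minus non-tumour differences in colon and small intestine were 0.04 and 0.36 with ACKR2 intact, and 1.02 and 1.41 with ACKR2 lost. Nop16, a nucleolar pre-60S protein, had 233, 329.9, 679 and 390.2 in colon and 251, 187, 533 and 233 in small intestine. As with Myc, ApcMin tumours were its highest array in each tissue, and tumour and non-tumour arrays overlapped in small intestine. Noc2l had 377, 182, 436 and 281 in colon and 361, 266, 475 and 364 in small intestine, with the lower signal on the ACKR2-deficient array of every pair. Noc3l, its partner in large-subunit assembly, Rrp1b and the helicase Ddx18 had colon differences of 0.91, 1.07 and 0.82, which did not pass (adjusted p = 0.0661, 0.0695 and 0.0606, limma).

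Other probe sets of the same genes mostly moved the same way. Of 42 further probe sets 38 were above the floor on at least 2 arrays, in 26 genes. Their sign matched that of the chosen probe set for 36 of 38 in colon tumours and for 35 of 38 in small-intestinal tumours. The 2 that went the other way in colon belonged to Pes1 (-0.07, against 0.66 for the chosen one) and Polr1a (-0.50, against 0.52). Sizes also differed. For Noc4l the other probe sets gave 0.89, 1.59 and 1.95 in colon, against 0.80 for the chosen one.

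The genes moved together over the arrays. Among 741 pairs of the 39 genes, Pearson's r over the 8 arrays on log2 signal was above 0 for 720 (97.2%), with a median of 0.67 against 0.016 over all pairs of tested genes. The 8 points share tumour status, tissue and the scaling of each array, so r is a description here. Nop58 lay closest to the median of the other genes (r = 0.99), and Polr1c, Utp20 and Noc2l were among the farthest (0.38, 0.37 and 0.36). The genes most like Myc were Gar1 (0.94), Nop16 (0.91), Nop58 (0.91) and Rrp1b (0.91). The median r with Myc was 0.74 for the list and 0.075 for all tested genes, and Polr1c was lowest at 0.06.

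The tumour effect was set against tissue to ask whether colon and small-intestinal tumours differed. The colon effect was the larger for 30 of 39 genes, and for 6280 of all 14027 genes. The median difference of effects was 0.24 against -0.07 over all genes. No gene of the list passed the test of this difference (limma, 0 of 39, and 6 at an unadjusted p under 0.05), where 2.15% of all genes passed in either direction. Nop56, Nolc1 and Ltv1 had the highest differences of effects, 1.0 ± 0.31, 0.97 ± 0.35 and 0.96 ± 0.34 (adjusted p = 0.171, 0.215 and 0.209, limma). Tsr1, Ppan and Polr1b had the lowest, -0.84 ± 0.27, -0.35 ± 0.37 and -0.25 ± 0.38. Read by single pairs of arrays, the gap between tissues was wider with ACKR2 lost than with ACKR2 intact. That contrast was not tested, because the model uses the difference of ACKR2 effects between tissues as its error. With ACKR2 intact the median tumour difference of the list was 0.73 in colon and 0.64 in small intestine, and with ACKR2 lost it was 0.90 and 0.28. The colon effect was the larger for 24 of 39 genes with ACKR2 intact (61.5%, against 42.7% of all genes) and for 33 with ACKR2 lost (84.6%, against 46.6%). Without both ACKR2KO_ApcMin arrays, in an additive model chosen after seeing the data, the median difference of effects was -0.0059.

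**Figure D3:**
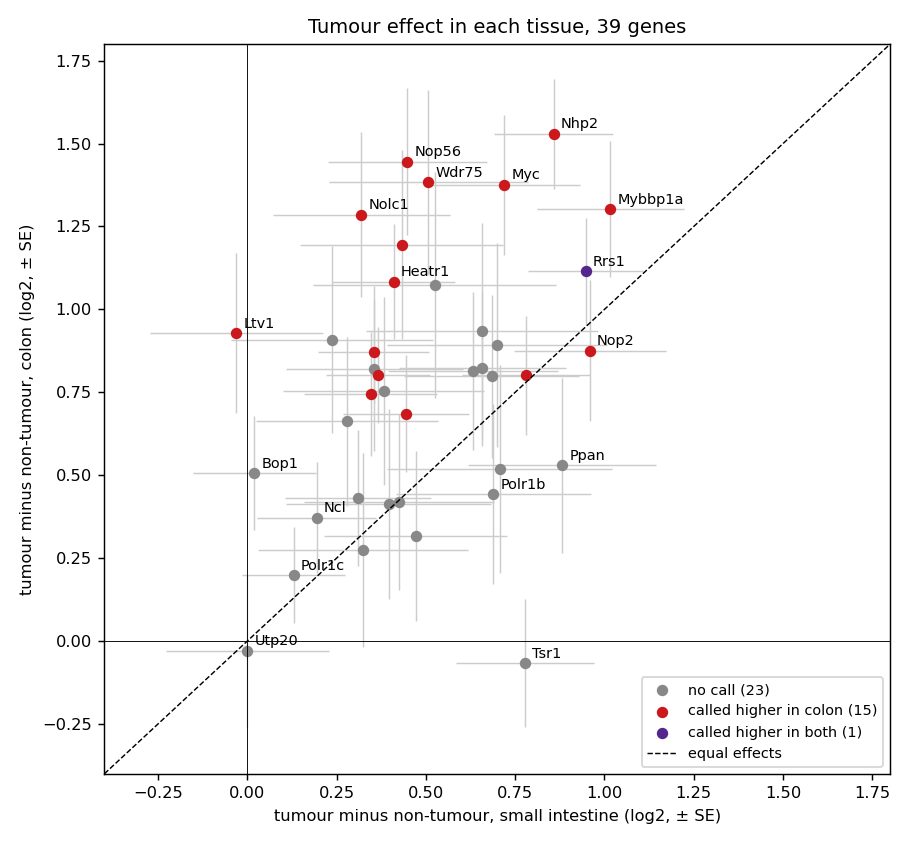
Each point is 1 of the 39 genes, with the tumour minus non-tumour log2 difference in small intestine on the x axis and in colon on the y axis, bars of 1 standard error and colours for the calls. Of the 39 points 30 lie above the dashed line of equal effects, Rrs1 is called in both tissues, and Tsr1 lies far below the line at 0.78 in small intestine and -0.07 in colon.

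Colon and small intestine were also compared at equal tumour status. In non-tumour tissue the list had a median difference of 0.07, against 0.11 over all genes. There 3 of 39 genes were higher in colon and 0 lower, where 12.9% of all genes were higher and 8.38% lower: Tsr1 by 1.62 ± 0.19, Utp20 by 0.98 ± 0.23 and Rrp9 by 0.96 ± 0.26 (adjusted p = 0.00372, 0.0316 and 0.0455, limma). Heatr1, Nolc1 and Dkc1 were lowest, at -0.47 ± 0.17, -0.38 ± 0.25 and -0.37 ± 0.28. In tumours the median was 0.43 against 0.07, and 2 of 39 genes were higher in colon (5.75% of all genes), Utp20 by 0.95 ± 0.23 and Nhp2 by 0.74 ± 0.17 (adjusted p = 0.047 and 0.0385, limma). Wdr75 and Ddx21 had larger differences, 1.03 ± 0.28 and 1.02 ± 0.28, with larger errors. Noc2l, Polr1b and Ppan were the lowest in tumours, at -0.25 ± 0.27, -0.19 ± 0.27 and -0.17 ± 0.26. Between ApcMin tumours the median colon minus small intestine difference was 0.19, and between ACKR2KO_ApcMin tumours 0.67, with 11 genes at least 2-fold higher in colon (28.2% of the list, against 10.5% of all genes).

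The ACKR2 pairs ask what loss of the receptor goes with. In tumours 0 of 39 genes passed (limma), where 0.0285% of all genes passed; at an unadjusted p under 0.05, 6 did (15.4%, against 15.6% of all genes). In non-tumour tissue 0 of 39 passed (limma), where 0.57% of all genes did; at an unadjusted p under 0.05, 7 did (17.9%, against 24.7%). Neither share lay above that of all genes. In tumours Polr1b, Nop16 and Myc had the lowest differences of ACKR2 loss, -1.23 ± 0.27, -1.0 ± 0.31 and -0.81 ± 0.21 (adjusted p = 0.172, 0.238 and 0.198, limma). Nop10, Nop56 and Polr1c had the highest, 0.56 ± 0.15, 0.34 ± 0.22 and 0.32 ± 0.14. In non-tumour tissue Ppan had -1.63 ± 0.26 (adjusted p = 0.0537, limma), Rrp12 -0.92 ± 0.29 and Noc2l -0.75 ± 0.27. Polr1c, Dkc1 and Nop10 were highest there, at 0.57 ± 0.14, 0.49 ± 0.28 and 0.41 ± 0.15. Median signal and the Actb ratio differed between ACKR2 genotypes as given above, and their part was not tested.

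The 2 tissues went apart when the pairs of tumour arrays were read singly. ACKR2KO_ApcMin colon tumours were above ApcMin colon tumours for 28 of 39 genes (46.2% of all genes), with a median of 0.20 against 0.00. In small-intestinal tumours they were below for 35 of 39 genes (56% of all genes), with a median of -0.45 against -0.07. For 25 genes (64.1%, against 22.4% of all genes) the array without ACKR2 was the higher in colon and the lower in small intestine. Wdr75, Wdr12 and Dkc1 were examples, with 0.53, 0.67 and 0.23 in colon and -0.61, -0.48 and -0.96 in small intestine. Myc was not among them, at -0.77 in colon and -0.86 in small intestine, nor were Nop16 (-0.80 and -1.20) and Polr1b (-1.48 and -0.98). Nop10, Heatr1 and Polr1c were higher without ACKR2 in both. With arrays centred on their medians the list had 0.26 in colon and -0.22 in small intestine, against 0.06 and 0.16 over all genes. These pairs are 1 array against 1 and have no test. In non-tumour tissue the medians were 0.02 in colon and -0.11 in small intestine.

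**Figure D4:**
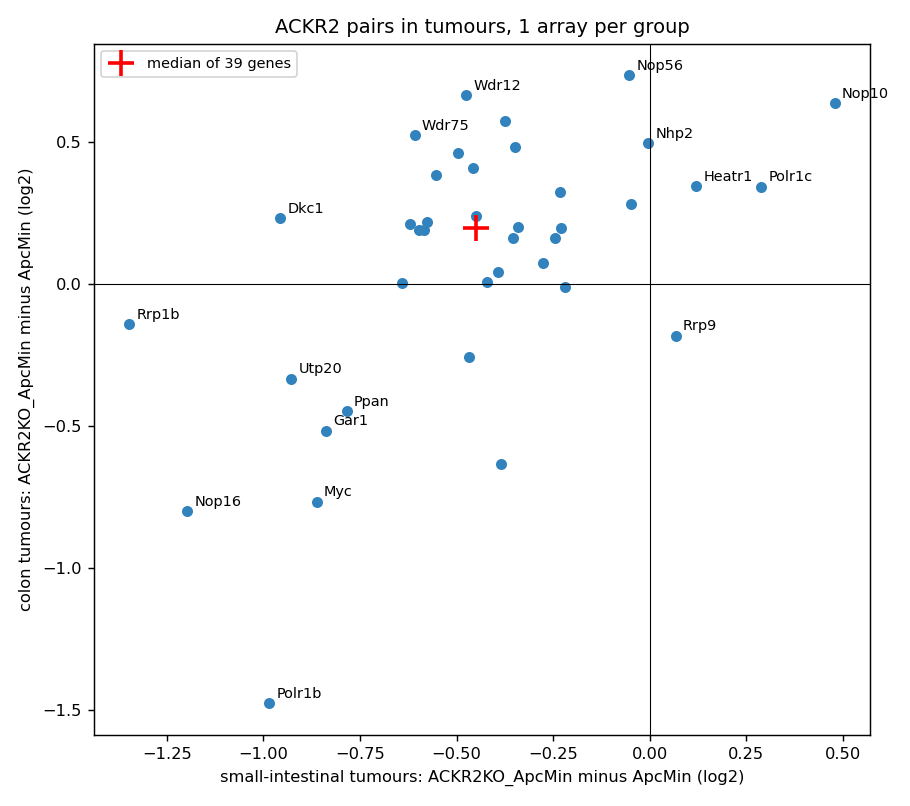
Each point is 1 of the 39 genes, with the log2 difference of ACKR2KO_ApcMin minus ApcMin tumours in small intestine on the x axis and in colon on the y axis. Of the 39 genes 25 lie at the upper left (higher in colon, lower in small intestine), and Myc, Nop16 and Polr1b lie at the lower left.

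The signals of several cell type lists and of Xist also differed between these pools. Smooth muscle signal was lower in ACKR2KO_ApcMin than in ApcMin tumours of both tissues. In small-intestinal tumours the summed signal of 7 B cell genes was 7580 with ACKR2 intact and 11675 without, that of 7 fibroblast genes 19296 and 5622, and that of 12 epithelial genes 175226 and 227138. In colon tumours the epithelial sums were 157625 and 158367. Xist, which coats the inactive X, was 4827 and 127 in the small-intestinal tumours and 2954 and 77.9 in the colon tumours. The part of these shifts in the list's values was not tested.

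Related gene lists put the result in context. Of 73 other ribosome biogenesis factors 17 rose in colon tumours and 0 fell, with a median of 0.56, and 0 passed in small intestine (limma, 19 at an unadjusted p under 0.05), with a median of 0.32. Utp4 and Utp6, which act in the small-subunit processome, rose in colon by 1.06 ± 0.22 and 0.76 ± 0.19. Of 10 other RNA polymerase I factors 1 rose in colon (Taf1d), and of 17 RNA polymerase III factors 1 (Polr3k), both named after their values were seen. The cytosolic ribosomal proteins are the parts of the ribosome itself. Of 43 tested 0 passed in colon (limma, 2 at an unadjusted p under 0.05), with a median of -0.05, and 0 in small intestine (5 unadjusted), with a median of 0.14. Their differences were above 0 for 16 of 43 in colon and 37 of 43 in small intestine, and their gap to the 39 genes was not tested. The single colon pairs went apart. The median was -0.19 with ACKR2 intact, with 10 of 43 above 0, and 0.14 with ACKR2 lost, with 37 of 43 above 0. Only 44 of the 79 listed had a probe set of their own.

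Of the 12 Myc network factors tested, 1 rose and 3 fell in colon tumours, where 11.1% of all genes rose and 12.6% fell. Mycn, a relative of Myc, rose by 0.99 ± 0.28 (adjusted p = 0.0489, limma). Max, the partner of Myc, fell by 1.34, Mxd1, which competes with Myc for Max, fell by 1.30, and Mlxip fell by 0.99 (adjusted p = 0.0206, 0.0297 and 0.0152, limma; Mlxip was named after its values were seen). Max had signals of 4594, 2866, 2227 and 929 in colon and 4733, 4001, 3489 and 3115 in small intestine, lower in tumours throughout. The 12 also held Mycl, Mxd3, Mxd4, Mxi1, Mnt, Mga, Mlx and Mlxipl. None of the 12 passed in small intestine (limma, 3 at an unadjusted p under 0.05). Of the 12 small-intestinal differences 5 were above 0, with 1.09 for Mycn and 1.21 for Mycl. The colon difference of Mycl was 0.97 and did not pass. Of 29 other known Myc targets 14 rose and 3 fell in colon tumours, with a median of 0.65. The 3 were Slc16a1, Gadd45a and Cdkn1a, named after their values were seen. In small intestine 1 of the 29 rose, with a median of 0.19. This list was not split by the direction in which Myc acts on each gene, so its counts and medians pool both. Odc1, the first enzyme of polyamine synthesis, rose in colon by 0.89 ± 0.14, and Nme1, a nucleoside diphosphate kinase, by 1.53 ± 0.18. Ldha, a lactate dehydrogenase, had -0.09 ± 0.19.

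Proliferation genes had a wider gap between the medians of the tissues than the ribosome list. Of 20 tested 19 rose in colon tumours, with a median of 1.46, and 0 in small intestine (limma, 8 at an unadjusted p under 0.05), with a median of 0.26. Of these, 3 passed the test of the difference between tissues (Birc5, Rrm2 and Cdc20, named after their values were seen). In non-tumour tissue 9 of the 20 were lower in colon than in small intestine, with a median of -0.72, where the ribosome list had 0.07. Of 13 Wnt targets 12 rose in colon tumours and 7 in small-intestinal tumours, with medians of 2.39 and 1.45. All 10 smooth muscle genes fell in colon tumours, with a median of -3.58, and 7 fell in small-intestinal tumours.

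**Figure D5:**
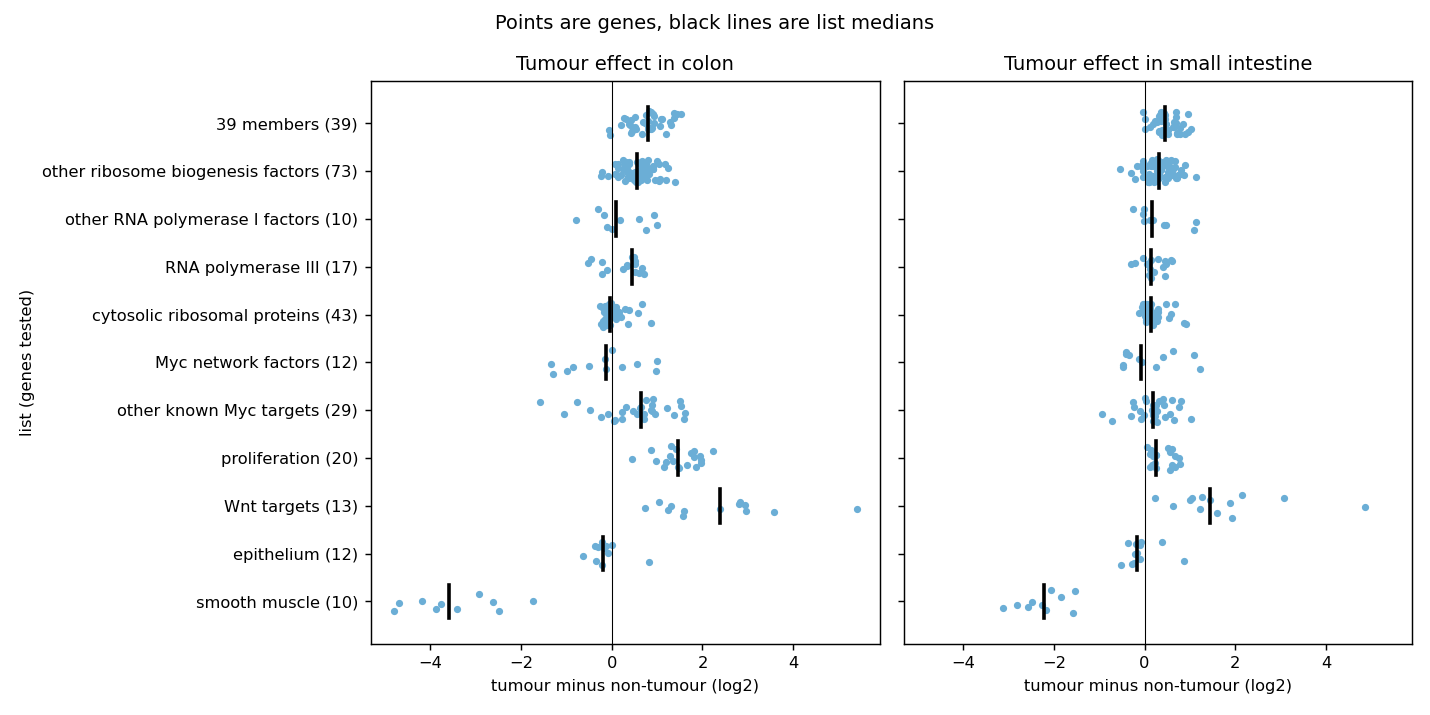
Points are the tumour minus non-tumour log2 differences of single genes in colon (left) and small intestine (right), 1 line per list with the number of genes tested, and black lines are list medians. The 39 genes have medians of 0.80 and 0.44, the cytosolic ribosomal proteins -0.05 and 0.14, and the proliferation genes 1.46 and 0.26.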

How the data were processed

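The deposited table held 1 column of linear intensity per array. MAS5 and Partek are the tools in the submitters' processing notes; their versions were not given in the sources used here. With 2% of values trimmed at either end, every array had a mean of 500, so the authors' values were already scaled. Per the labels' protocols, RNA was extracted with Trizol and RNeasy columns, pooled and labelled for 3' arrays.

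Of 45101 probe sets, 34945 belonged to 1 gene and were used. Signals under 64.1 (log2 6.00) were raised to that floor, which is the 40th percentile of an array (median over arrays), and log2 was taken. Genes above it on at least 2 of 8 arrays were tested. One limma model (limma 3.58.1, R 4.3.3) with 6 coefficients gave all comparisons: 4 for the combinations of tissue with tumour or non-tumour, and separate ACKR2 effects for tumours and non-tumour tissue, each common to colon and small intestine. It had 2 residual and 4.12 prior degrees of freedom and a median SD of 0.22 on the log2 scale. Tests were two-sided with Benjamini-Hochberg adjustment over all 14027 genes, and the code was tested on simulated data. As each pool is 1 sample, p-values rest on how far the ACKR2 effects differ between colon and small intestine. They hold no spread between animals.

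The 40 genes, their roles, the other lists and the tests were chosen with earlier results of these data known. Genes given on every array were 15 fixed by role plus the 3 highest and 3 lowest of each comparison; of other lists, the first 4 genes could be named, with exceptions marked in the text. Alternative settings concerned the floor, the filter, between-array normalization (quantile or median centring), averaging a gene's probe sets, an additive model, limma without the trend and leaving out each array.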

Additional observations from a re-analysis of the deposited data

Results flagged for a closer look

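The loss of ACKR2 went with opposite shifts of the list in tumours of the 2 tissues. The median log2 difference of the 39 genes between ACKR2KO_ApcMin and ApcMin tumours was 0.20 in colon and -0.45 in small intestine. Some other lists shifted the same way. Wnt targets had medians of 0.42 and -0.46, proliferation genes 0.21 and -0.28 and other ribosome biogenesis factors 0.19 and -0.23. Others did not. The other known Myc targets had -0.03 and -0.10, and the other RNA polymerase I factors -0.19 and -0.35. Cytosolic ribosomal proteins had 0.20 and 0.38, and epithelial genes -0.01 and 0.36. The values of the 39 genes stood out because the only pair of colon tumour arrays moved one way and the only pair of small-intestinal tumour arrays the other. The difference was not tested: with 1 array per group, the difference of the ACKR2 effect between tissues is the spread that the model uses as its error.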

How the results depend on the processing

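No paired analysis was possible because the labels carry no replicate numbers and each group is 1 array. Main counts of the 39 genes past the threshold were 16 (colon tumours), 1 (small-intestinal tumours), 0 (difference between tissues), 0 and 0 (ACKR2 in tumours and in non-tumour tissue), 3 and 2 (colon minus small intestine, non-tumour and tumours). In colon tumours the count ran from 14 to 23 under 8 other settings; with no filter it was 0, as were the counts of 1, 3 and 2. Leaving out each array in turn gave 0 (lowest) to 0 (highest) for every count, with 1 residual degree of freedom left; so did an additive model without both WT arrays or without both ACKR2KO_ApcMin arrays, chosen after seeing the data. In small-intestinal tumours 4 genes passed with no floor and with the filter on all 8 arrays, 2 with quantile normalization, median centring and the additive model, and 0 with the mean of all probe sets and with no trend. For ACKR2 in non-tumour tissue 1 passed with no floor, the filter on all 8 arrays and median centring, and 2 with the additive model, which also gave 2 for ACKR2 in tumours. Between the tissues 1 passed without tumours with quantile normalization; in tumours 5 passed with the filter on all 8 arrays and median centring, 4 with the additive model, 1 with the mean of all probe sets and 0 with no trend. The cause was not tested.

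The median of the list kept its sign for both tumour effects under each setting run. For the ACKR2 effect it was -0.10 in tumours and 0.04 with median centring, and -0.02 in non-tumour tissue, 0.12 with quantile normalization and 0.12 with median centring. Between the non-tumour tissues (colon minus small intestine) it was 0.07, and -0.15 with median centring, which moved the median of all genes from 0.11 to -0.11.

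Tumour effects turned sign for genes near 0. In small intestine Utp20 was -0.098 and Bop1 -0.033 with quantile normalization, and Utp20 -0.14, Bop1 -0.12 and Polr1c -0.011 with median centring. In the additive model without both WT arrays, Polr1b was -0.092 and Utp20 0.021 in colon, and Dkc1 -0.066, Utp20 -0.096 and Noc3l -0.021 in small intestine. Without both ACKR2KO_ApcMin arrays, Rrp12 was -0.050 and Ppan -0.064 in colon, and Ltv1 0.23 in small intestine. Leaving out 1 array at a time, 4 genes changed sign in colon. Their values ran, for Utp20 from -0.33 to 0.27, Rrp9 from -0.048 to 0.68, Tsr1 from -0.32 to 0.19 and Nop14 from -0.12 to 0.67. In small intestine 12 genes did, 11 of them without ApcMin small-intestinal tumours. Their values ran, for Utp20 from -0.30 to 0.30, Ltv1 from -0.50 to 0.44, Bop1 from -0.084 to 0.12, Dkc1 from -0.21 to 0.98, Ncl from -0.020 to 0.41, Nolc1 from -0.096 to 0.74, Nop14 from -0.074 to 0.72, Wdr75 from -0.060 to 1.07, Noc3l from -0.11 to 0.58, Pes1 from -0.16 to 0.71, Rrp1b from -0.079 to 1.13 and Ddx18 from -0.12 to 0.83. The number of arrays limits every value, and Rrp9 was near the floor.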
